A study of Homo sapiens with 56 samples.

Results

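Human chromosome 3 was followed gene by gene in 4 cultures of mantle cell lymphoma, an aggressive B-cell lymphoma, to see which stretches of it gave more or less messenger RNA in the MINO-VR culture than in the MINO-P culture. The genes described are the protein-coding genes of chromosome 3 with at least 1 CPM (a gene's counts scaled to the same total in every library) in 5 or more of the 56 libraries. There were 686 of them, out of 865 protein-coding chromosome 3 genes and 21595 named genes in the table, and 12836 genes met the same rule over all chromosomes. At the edge of the rule, 6 genes reached 1 CPM in exactly 5 libraries, with highest values of 1.498 to 7.18 CPM, and the 6 genes that reached it in exactly 4 libraries had highest values of 1.80 to 11.5 CPM. The genes were ordered by their start, and the segments described below were drawn from the difference between MINO-VR and MINO-P itself, so the genes were chosen by their CPM and the segments by measured differences of log2(CPM + 1); these differences are a description and carry no test.

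A copied or lost stretch of a chromosome carries all the genes on it, and the RNA of many of those genes moves with the number of copies, so neighbouring genes that shift together by a similar amount are the pattern looked for when RNA stands in for copy number. Single genes depart from their neighbours where promoters, transcription factors or RNA decay set their level. In lymphoma, the short arm of chromosome 3 is known for MYD88, the Toll-like receptor adaptor, and the end of the long arm for BCL6, the germinal centre repressor. RNA was the only quantity measured here, and the DNA copy number of the lines was not analysed here.

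The 56 poly-A RNA-seq libraries came from the established cell lines MINO, as the cultures MINO-P (15 libraries) and MINO-VR (13), JEKO-1 (15) and Z138 (13). The suffixes P and VR are left unexplained in the labels, which give no dose, time, clone or culture history. MINO-P and MINO-VR shared 9 treatments, written as in the labels: CON, CLF, BTZ, BTZ_CLF, BTZ_YM155, IBR, IBR_CLF, YM155 and S63845. They left 13 MINO-P and 12 MINO-VR libraries for the comparison. YM155 lowers the expression of BIRC5 (survivin), S63845 inhibits MCL-1, and the study's title names inhibition of both against drug resistance. The IBR_YM155 and IBR_S63845 libraries of MINO-P and the BTZ_S63845 library of MINO-VR have no partner in the other culture and entered no segment. JEKO-1 was treated with CON, CLF, BTZ, BTZ_CLF, IBR, IBR_CLF, YM155 and S63845. Z138 was treated with CON, CLF, BTZ, IBR, IBR_CLF, IBR_YM155, YM155 and S63845. The labels do not say whether libraries of 1 line and treatment came from separate cultures, so p-values measure the spread between libraries, which may be technical.

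Depth recovered from the steps of the low values ran from 5.51 to 21.6 M reads, with a median of 16.02 M, so that 3 reads stood for 0.139 to 0.545 CPM. Mitochondrial genes took 1.91% to 80.5% of a library, with a median of 6.69%, and the 6 libraries above 50% were all JEKO-1, under BTZ, BTZ_CLF or IBR_CLF. The third JEKO-1 BTZ library stood apart from the other two, with 15.04 M reads and 9.92% mitochondrial reads against 67.5% and 67.6%. Among B-cell markers, MS4A1 had medians of 256 to 616 CPM in the 4 cultures, CD79A of 174 to 339 CPM, CD79B of 102 to 247 CPM, PAX5 of 40.4 to 148 CPM and CD22 of 0.72 to 16.9 CPM. CCND1, SOX11 and CD5, which mark mantle cell lymphoma, summed to medians of 742 to 2426 CPM. CD5 was listed at a median of 0 CPM in Z138. The T cell markers CD3D, CD3E, CD3G and CD2 summed to at most 0.565 CPM in any MINO library and at most 10.8 CPM in any Z138 library, where CD3G held most of it, and the myeloid markers CD14, LYZ and CSF1R to at most 12.3 CPM, reached in MINO-VR. In bulk RNA, fewer cells of a type and less RNA per cell cannot be told apart.

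The step from a higher to a level stretch fell between CAPN7 and SH3BP5 under every setting tried for the segment fit, and PARP14, PARP9 and PLSCR1 were among the genes furthest above the lower stretches. The 250 bases before the start of both border genes and of 3 of the departing genes are printed because they show what kind of promoter stands on each side of the step and in front of the exceptions. They are RefSeq sequences of build GRCh38.p14, 5′ to 3′, and 606 of the 686 genes had an entry. CAPN7 (chr3:15205996-15206245, plus strand) encodes a calpain-type protease and SH3BP5 (chr3:15332587-15332836, minus strand) a binding protein of BTK, the kinase downstream of the B-cell receptor. PARP14 (chr3:122680589-122680838, plus strand) and PARP9 (chr3:122564301-122564550, minus strand) encode ADP-ribosyltransferase family proteins, and PLSCR1 (chr3:146544608-146544857, minus strand) a phospholipid scramblase. Capitals mark GGGCGG or its reverse complement, the GC box bound by SP1-type factors, in the first pair, and GAAA followed after any pair of bases by GAAA, or its reverse complement, the repeat known from interferon response elements, in the other 3.
CAPN7: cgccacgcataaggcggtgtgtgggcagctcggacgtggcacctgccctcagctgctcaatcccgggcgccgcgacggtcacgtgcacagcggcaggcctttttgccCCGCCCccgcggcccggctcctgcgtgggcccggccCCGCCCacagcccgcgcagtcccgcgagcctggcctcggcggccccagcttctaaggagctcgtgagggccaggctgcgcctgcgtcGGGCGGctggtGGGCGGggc
SH3BP5: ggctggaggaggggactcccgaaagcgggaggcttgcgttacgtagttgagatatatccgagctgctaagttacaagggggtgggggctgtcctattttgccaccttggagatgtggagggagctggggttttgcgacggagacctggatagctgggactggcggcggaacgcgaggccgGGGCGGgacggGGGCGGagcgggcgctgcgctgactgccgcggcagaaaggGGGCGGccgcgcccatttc
PARP14: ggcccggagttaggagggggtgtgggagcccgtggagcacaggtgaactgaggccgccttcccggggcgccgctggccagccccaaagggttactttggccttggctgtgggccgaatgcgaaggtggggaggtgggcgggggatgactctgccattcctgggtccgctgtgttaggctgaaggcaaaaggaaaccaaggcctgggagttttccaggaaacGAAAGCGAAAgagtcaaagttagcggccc
PARP9: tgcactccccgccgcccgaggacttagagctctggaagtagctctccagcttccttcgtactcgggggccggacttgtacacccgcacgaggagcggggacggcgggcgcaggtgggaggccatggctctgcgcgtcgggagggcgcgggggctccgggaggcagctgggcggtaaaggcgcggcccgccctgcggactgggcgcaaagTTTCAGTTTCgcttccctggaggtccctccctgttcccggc
PLSCR1: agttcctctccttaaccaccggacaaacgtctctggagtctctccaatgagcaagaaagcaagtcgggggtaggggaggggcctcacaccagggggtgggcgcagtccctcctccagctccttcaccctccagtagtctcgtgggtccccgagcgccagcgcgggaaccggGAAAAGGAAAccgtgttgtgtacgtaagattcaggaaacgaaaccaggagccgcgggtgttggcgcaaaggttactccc
The border genes run toward each other, so both promoters lie at the ends of the genes away from the step. Both were rich in G and C, at 76.4% for CAPN7 and 66% for SH3BP5, with 4 and 3 GC boxes. A GC box stood in 42.6% of all 35116 promoters of the table and in 57.5% of the 20463 promoters of genes in the deposited table. Counted by gene, where any of a gene's promoters may hold it and shares are not comparable with those over promoters, it stood in 72.4% of the 606 genes and in 63.5% to 74.4% of the genes of each of the 5 segments. The GAAA repeat stood in 3.02% of all promoters and 2.61% of those of genes in the deposited table, and, by gene, in 4.62% of the 606 genes. PARP9 and PLSCR1 have 2 promoters each in the table, and 1 that holds the repeat is printed. A match is a string of letters and says nothing of binding in these cells.

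The fit along gene order divided the 525 genes with a mean of at least 5 CPM in the MINO libraries into 5 segments, of which 1 was higher in MINO-VR, 2 were lower and 2 were level. Differences are of log2(CPM + 1), fitted with treatment as a term and given relative to the median of the genes on other chromosomes, which was 0.068. A segment counts as higher or lower where its median lies more than 0.2 from that value. For single genes, differences within a treatment and counts of treatments higher or lower are given without this subtraction. Per treatment, the median of other chromosomes lay between -0.04 under CLF and 0.24 under IBR_CLF. Coordinates are those of the deposited table, build hg38.

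**Figure D1:**
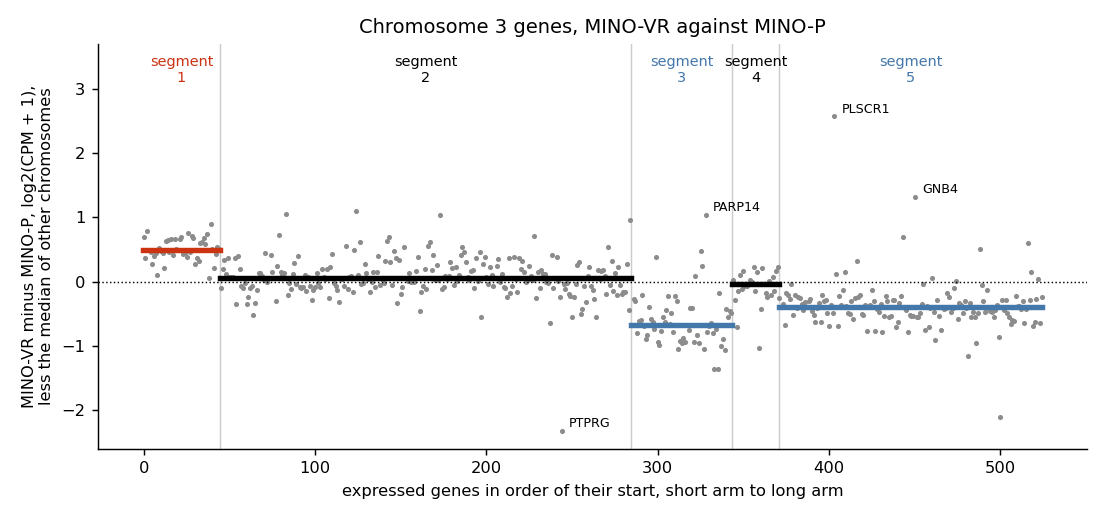
Difference of log2(CPM + 1) between MINO-VR and MINO-P for the 525 expressed genes (points) in order of their start, less the median of other chromosomes, with bars at the median of each segment (red higher, blue lower, black level) and vertical lines at the borders. The points of segment 1 lie around 0.49, those of segment 3 around -0.67 and those of segment 5 around -0.40, and PTPRG, PARP14, PLSCR1 and GNB4 lie far from their segments.

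Segment 1 was the higher one. It ran from TRNT1 to CAPN7 (chr3:3126933-15252917, 12.1 Mb of the tip of the short arm) and held 60 of the 686 genes, of which 45 passed the 5 CPM limit. Their median was 0.49, a 1.41-fold difference, with quartiles of 0.41 and 0.66, and 45 of 45 lay above the median of other chromosomes. The lowest were LSM3, an RNA-processing protein, at 0.06, RAD18, a ubiquitin ligase of DNA damage tolerance, at 0.11, and BRPF1, a chromatin reader, at 0.22.

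The segment holds several DNA repair genes. XPC, which recognises damage in nucleotide excision repair, was at 19.5 CPM in its lowest MINO-P library, 32.5 at the median and 54.2 in its highest, against 42.4, 58.1 and 80.5 CPM in MINO-VR, over the libraries of shared treatments. The lines overlapped, but MINO-VR was higher within each of the 9 treatments, by 0.30 to 1.31 before the median of other chromosomes is subtracted. VHL, the substrate receptor of the ubiquitin ligase that degrades hypoxia-inducible factors, had medians of 87.4 CPM in MINO-P and 121 CPM in MINO-VR and was also higher in 9 of 9 treatments. OGG1, which removes oxidised guanine, was higher in 9 of 9 and FANCD2, of the Fanconi anaemia pathway, in 8 of 9.

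SLC6A6, the taurine transporter, had the largest difference of the segment's 45 genes, at 0.90, and was higher in 9 of 9 treatments. It ranged from 5.17 CPM over 28.9 to 46.3 CPM in MINO-P and from 20.6 over 40.1 to 102 CPM in MINO-VR, and the groups overlapped. TAMM41, a mitochondrial enzyme of cardiolipin synthesis, was the single gene of the chromosome whose MINO-VR libraries all lay above all MINO-P libraries. It was at 7.17 to 13.3 CPM against 3.54 to 6.69 CPM. That is 0.153% of the 653 chromosome 3 genes tested, near the 0.191% of all 14631 genes tested that had such a gap. In the 3 libraries that entered no segment, TAMM41 stood at 6.32 and 4.94 CPM in MINO-P and at 8.61 CPM in MINO-VR.

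Segment 2, from SH3BP5 to ALCAM (chr3:15254353-105576901, 309 genes), took in the rest of the short arm and the start of the long arm, and was level at 0.05. The step into it fell between neighbours. CAPN7 and SH3BP5 lie on opposite strands with their 3′ ends 1.44 kb apart on the map, and none of the 686 genes lies between them. CAPN7 had medians of 39.2 CPM in MINO-P and 59.5 CPM in MINO-VR and was higher in 9 of 9 treatments, whereas SH3BP5 had medians of 44.4 and 33.9 CPM and was higher in 4 and lower in 5. Of the listed suppressor, chromatin and repair genes in this stretch, the chromatin regulators lay near its level, with SETD2 at -0.04, BAP1 at 0.12, PBRM1 at -0.17 and SMARCC1 at -0.15. RASSF1, a RAS effector, was at 0.22. FHIT, a diadenosine triphosphate hydrolase, was at -0.74 with medians of 2.77 and 1.90 CPM.

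PTPRG, a receptor-type tyrosine phosphatase in segment 2 (chr3:61561569-62297610), had the lowest difference of the 525 genes, at -2.32. It was at 3.55 CPM in its lowest MINO-P library, 15.5 at the median and 29.1 in its highest, against 0.498, 2.03 and 3.42 CPM in MINO-VR. The lines did not overlap over the shared treatments, although the MINO-VR BTZ_S63845 library, at 5.37 CPM, lies above the lowest MINO-P library. The quartiles of the segment lay at -0.09 and 0.23. On the higher side of the segment stood CCRL2, an atypical chemokine receptor, with medians of 5.55 CPM in MINO-P and 11.4 CPM in MINO-VR, and UBA7, the activating enzyme of the interferon-induced modifier ISG15, with 8.80 and 20.3 CPM. Both were higher in 9 of 9 treatments. MYD88, the adaptor of Toll-like receptors, was higher in 9 of 9 treatments at 0.41, and FOXP1, a B-cell transcription factor, lower in 9 of 9 at -0.50.

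Segment 3 was the lowest. It ran from CBLB to PLXNA1 (chr3:105655461-127037390, 21.4 Mb of the long arm) and held 82 genes, 59 of them above the 5 CPM limit, with a median of -0.67, or 0.63-fold, and 54 of 59 below the median of other chromosomes. Its first border lies between ALCAM, an adhesion molecule that was itself higher in MINO-VR at 0.95, and CBLB, the ubiquitin ligase that restrains antigen receptor signalling, at -0.67. CBLB had medians of 45.6 CPM in MINO-P and 29.4 CPM in MINO-VR and was lower in 7 of 9 treatments.

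OSBPL11, an oxysterol-binding protein relative, ranged from 26.8 over 33.7 to 46.9 CPM in MINO-P and from 13.7 over 17.5 to 21.3 CPM in MINO-VR, so that no MINO-VR library reached the lowest MINO-P library. ATG3, the enzyme that joins LC3 to lipid in autophagy, was at 36.8 to 93.8 CPM against 20.1 to 31.9 CPM, and IFT57, of intraflagellar transport, at 10.3 to 24.2 against 6.36 to 9.94 CPM, again without overlap. CCDC14, a centriolar satellite protein, and HEG1, a membrane mucin-like receptor, had the largest differences at -1.36 and -1.35, with overlapping libraries. In the 3 libraries left out of the segments, OSBPL11 stood at 30.1 and 22.8 CPM in MINO-P and at 18.5 CPM in MINO-VR, while IFT57 stood at 9.85, 9.10 and 9.17 CPM and did not separate the cultures.

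Of the 10 listed immune and replication genes in this stretch, 8 lay above its median and 2 below. CD47, the signal that restrains phagocytosis, was at -0.30 and HCLS1, a B-cell receptor substrate, at -0.41, both lower in 8 of 9 treatments, and POLQ, a repair polymerase, at -0.76. CD80 and CD86, the ligands of CD28 and CTLA4, lay closer to the other chromosomes at -0.23 and 0.09.

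The genes furthest above segment 3 were PARP14 at 1.04, PARP9 at 0.47 and SIDT1, a membrane protein linked to RNA and cholesterol transport, at 0.38. The difference of PARP14 was not of 1 direction over the treatments, most of which have 1 library in each culture. It stood at 27.3 CPM in MINO-P and 245 CPM in MINO-VR under CON, and at 24.6 and 143 CPM under CLF. Under YM155 the order was the other way, at 345 CPM in MINO-P and 179 CPM in MINO-VR, and over the 9 treatments MINO-VR was higher in 5 and lower in 4. PARP9 was higher in 4 and lower in 5, and DTX3L, its ubiquitin ligase partner and head-to-head neighbour, higher in 5 and lower in 4, at 0.24. DTX3L and PARP9 overlap at their starts, and strand use in counting is not given in the sources used here.

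Segment 4, from TPRA1 to ACAD11 (chr3:127571232-132660083, 33 genes), was level at -0.04 between the lower stretches, and it varied most by treatment, from -0.24 under BTZ to 0.36 under CLF, with an SD over the 9 treatments of 0.22 against at most 0.16 in the other segments. RPN1, of the oligosaccharyltransferase, was at -0.07 and MCM2, of the replicative helicase, at -0.29. Fits that left out 1 library also lost its treatment where the culture had no other library of it. Under CON, CLF, BTZ, BTZ_CLF, YM155 and BTZ_YM155, removing either library gave the same fit, and both are counted. The fit kept no level stretch here in 16 of these 25 fits. With size factors or a minimum of 30 genes it kept none either, and segment 4 joined a lower segment. The same held when the fit was drawn from the 17 libraries of the MCL series alone, with a penalty factor of 4 or with a limit of 20 CPM, each of which gave 3 segments.

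Segment 5 was the other lower one. It began next to ACAD11 and ran to LMLN, 65.4 Mb up to the end of the long arm, and held 202 genes, 154 of them above the limit, with a median of -0.40, or 0.76-fold, and 142 of 154 below the median of other chromosomes. ACAD11, the last gene before it, was at 0.22.

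PPP1R2, an inhibitor of protein phosphatase 1 near the end of the arm, separated the cultures: 59.4 to 85.5 CPM in MINO-P against 33.0 to 51.7 CPM in MINO-VR. In the libraries left out of the segments it stood at 53.1 and 54.5 CPM in MINO-P and at 44.4 CPM in MINO-VR, in the same order but closer. APOD, a lipocalin, was lowest of the segment at -2.10, with medians of 11.8 and 1.501 CPM, lower in 8 of 9 treatments. TOPBP1, a scaffold of the replication checkpoint, ranged from 27.3 over 52.8 to 111 CPM in MINO-P and from 18.4 over 30.8 to 53.9 CPM in MINO-VR, and was lower in 9 of 9 treatments.

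The listed genes of the segment lay almost all below the other chromosomes. Of the 12 measured genes of 3q22 to 3q25, 12 were below, with a median of -0.50, among them CCNL1, a cyclin of RNA splicing, at -0.77, SMC4, of condensin, at -0.76, and ATR, the replication stress kinase, at -0.28. Of the 14 genes of 3q26, 13 were below, with a median of -0.48. PIK3CA, the catalytic subunit of PI3-kinase alpha, had medians of 60.8 CPM in MINO-P and 42.1 CPM in MINO-VR and was lower in 9 of 9 treatments, as were PRKCI, an atypical protein kinase C, and ATP11B, a lipid flippase.

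Of the 18 genes of 3q27 to 3q29 above the limit, 18 were below, with a median of -0.42. The largest difference was in ST6GAL1, the sialyltransferase that makes the CD22 ligand, at -0.95, with medians of 91.4 and 42.4 CPM. PSMD2, a subunit of the proteasome, had medians of 216 and 161 CPM and was lower in 9 of 9 treatments. BCL6 lay at -0.05, higher in 5 and lower in 4, and EIF4G1, the translation initiation scaffold, at -0.09. For comparison, the median of all 525 genes was -0.09.

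PLSCR1, GNB4 and TNFSF10 stood above segment 5. PLSCR1 differed most of the 525 genes, at 2.57. In MINO-P it was at 0 CPM under BTZ and 0.499 CPM under CON but at 39.3 CPM under YM155 and 24.8 CPM under BTZ_YM155, and the 2 S63845 libraries, at 30.6 and 1.26 CPM, did not resemble each other. In MINO-VR it was at 43.0 CPM under CON, 37.9 CPM under YM155 and 2.38 CPM under BTZ. GNB4, a G protein beta subunit, was higher in 9 of 9 treatments, with medians of 7.51 and 14.6 CPM and overlapping libraries. TNFSF10, the death ligand TRAIL, had medians of 2.58 and 5.48 CPM and was higher in 7 of 9. The 6 genes furthest above segments 3 and 5 were picked after their values were seen. Of them, 5 had the GAAA repeat in a promoter and GNB4 did not, where 10.8% of segment 3 and 5.56% of segment 5 genes had it. Among the other genes of these segments with the repeat and at least 5 CPM, RTP4 lay above other chromosomes, at 0.51. FAM162A at -0.84, HSPBAP1 at -0.78, TFDP2 at -0.63, PIK3CB at -0.40, YEATS2 at -0.28 and MFSD1 at -0.12 lay below. Whether the repeat bears on these levels was not tested.

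**Figure D2:**
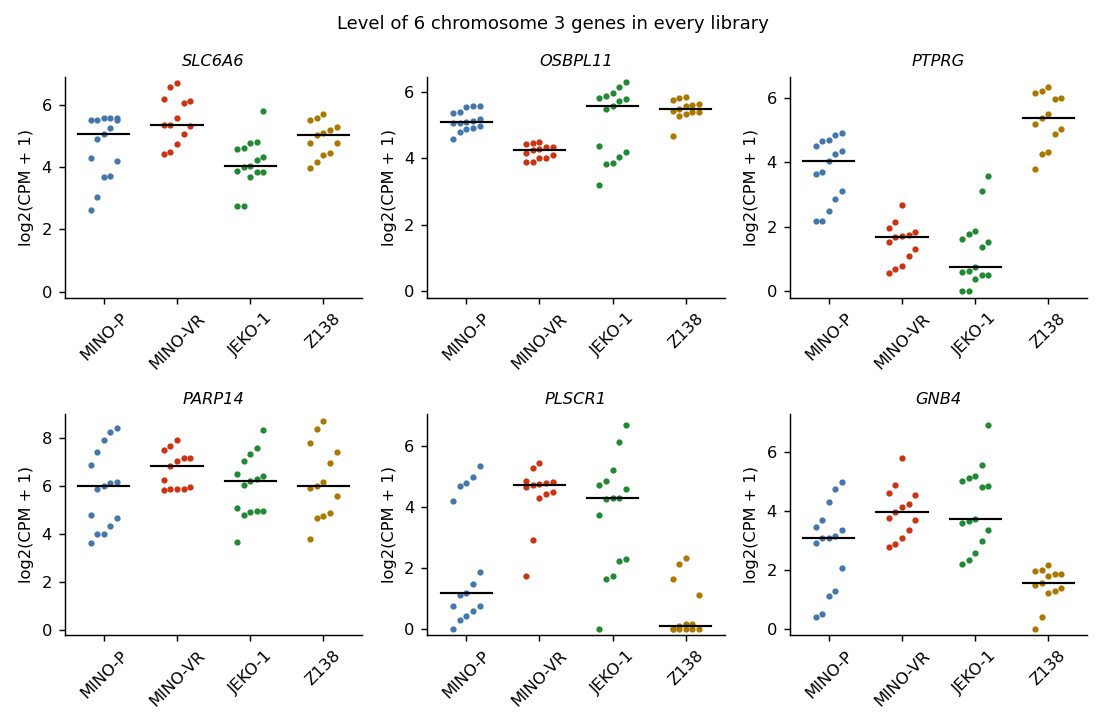
Level of 6 genes as log2(CPM + 1) in all libraries of each line (points) with the median of the line (bar). OSBPL11 and PTPRG are lower in MINO-VR than in MINO-P, SLC6A6 and GNB4 tend higher with overlap, and PARP14 and PLSCR1 spread widely within MINO-P.

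Split by shared treatment, the libraries that drew the segments gave the following medians, which are a description. The median of segment 1 lay between 0.29 under BTZ_YM155 and 0.68 under BTZ and was above 0 in 9 of 9 treatments. Segment 3 lay between -0.92 under YM155 and -0.38 under IBR_CLF and segment 5 between -0.47 under CON and -0.29 under IBR_CLF, and both were below 0 in 9 of 9. Segment 2 stayed between -0.004 and 0.12, while segment 4 was above 0 in 2 treatments and below 0 in 7.

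**Figure D3:**
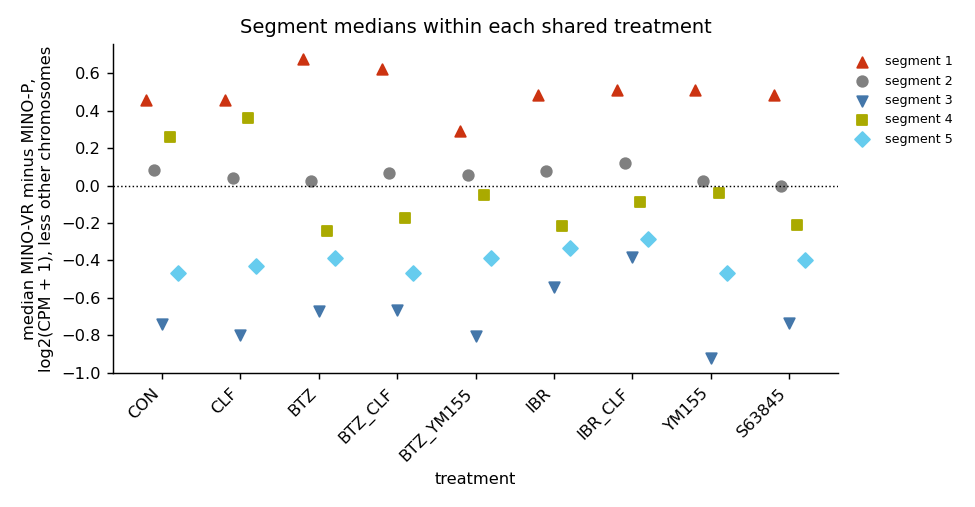
Median difference between MINO-VR and MINO-P in log2(CPM + 1), less the median of other chromosomes, for each segment (symbols) within each of the 9 shared treatments. Segment 1 is above 0 and segments 3 and 5 below 0 in every treatment, and segment 4 changes sign.

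Library by library, a segment score was taken as the median over its genes of log2(CPM + 1) less the mean of both MINO cultures, relative to genes of other chromosomes. In segment 1, MINO-P libraries of shared treatments scored from -0.41 to -0.07 and MINO-VR from 0.17 to 0.33. In segment 3, MINO-P scored from -0.07 to 0.54 and MINO-VR from -0.45 to -0.26. In segment 5, MINO-P scored from -0.01 to 0.36 and MINO-VR from -0.43 to -0.08. The cultures did not overlap in any of these 3 segments, and they overlapped in segments 2 and 4. The segments were drawn from the difference between these same libraries, so this separation is a description and no test.

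The 3 libraries that the segments did not use fell with their own culture. The MINO-P libraries under IBR_YM155 and IBR_S63845 scored -0.14 and -0.17 in segment 1, 0.46 and 0.25 in segment 3, and 0.17 and 0.20 in segment 5. The MINO-VR library under BTZ_S63845 scored 0.25, -0.30 and -0.23. With 2 libraries against 1 no permutation test can pass the threshold, and none was made.

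The MINO libraries carry HK in the library names of 8 libraries (BTZ, BTZ_CLF, CLF and CON) and MCL in those of the others, here called series, and no MINO treatment is in both. Borders drawn from the HK libraries alone lay at CAPN7, ALCAM, ZXDC and ACAD11. Read in the MCL libraries, these 5 stretches had medians of 0.49, 0.05, -0.67, -0.06 and -0.37. Borders drawn from the MCL libraries alone lay at CAPN7 and ALCAM, and the 3 stretches had medians of 0.61, 0.06 and -0.45 in the HK libraries.

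Counted gene by gene with limma at a Benjamini-Hochberg adjusted p under 0.05, 99 of 653 tested chromosome 3 genes were higher in MINO-VR (15.2%, against 14.8% of all 14631 genes) and 116 were lower (17.8%, against 8.61%). The rule used this contrast, so nothing is read from these shares. By segment, 39 of 57 genes of segment 1 were called higher, 39 of 77 of segment 3 lower and 64 of 188 of segment 5 lower. The 5 genes whose MINO-VR libraries lay wholly below MINO-P were PTPRG, IFT57, ATG3, OSBPL11 and PPP1R2 (0.766%, against 0.178% of all genes). Drawn the same way, segments called higher or lower held 49.1% of the chromosome 3 genes and 32.4% of the 9922 genes of all 23 chromosomes, and 6 chromosomes held both kinds.

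Whether the difference between the cultures depends on BTZ was asked with an interaction term, which the mean difference does not fix. No chromosome 3 gene of 653 passed in either direction (limma, smallest adjusted p over all genes 0.112), and 0% of all 14631 genes did, while 37 chromosome 3 genes and 904 genes in all had an unadjusted p under 0.05. The largest shift among the genes described above was in PARP14, at -1.54 ± 0.78 (SE), adjusted p = 0.825 by limma. It did not pass after adjustment over all genes. The BTZ, BTZ_CLF and BTZ_YM155 treatments have 1 library in each culture, so an absent call does not show an absent shift. SKIL, a repressor of SMAD signalling on 3q26, was called only without the MINO-VR S63845 library, a fit that dropped the S63845 treatment from both cultures. There it was at -1.38 with a limma adjusted p of 0.0485.

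**Figure D4:**
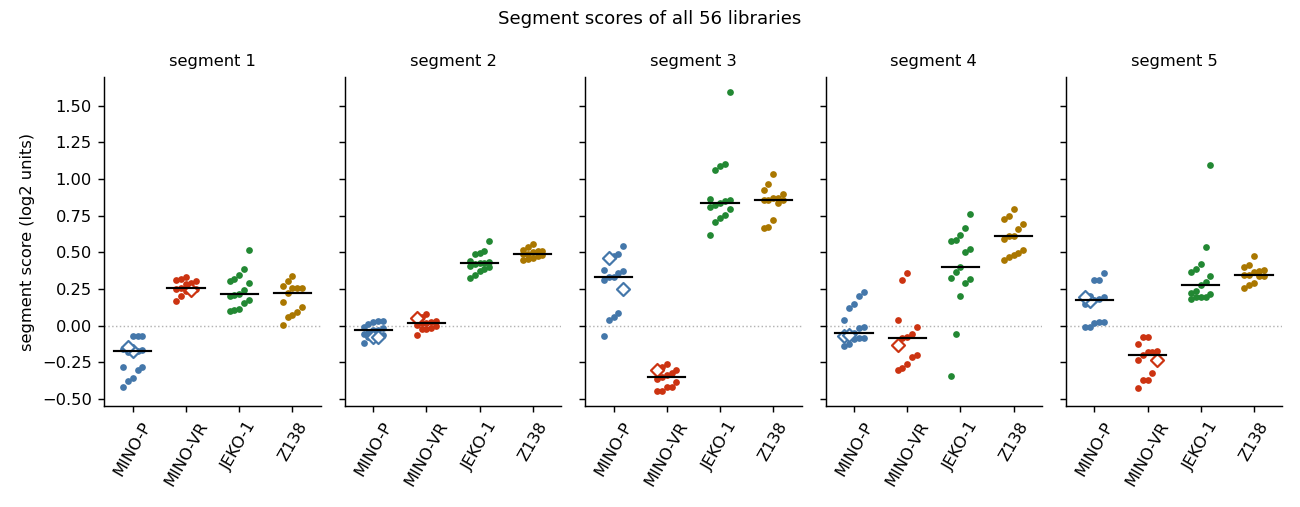
Segment score of each of the 56 libraries (points) by line, with the line's median (bar); open diamonds are the MINO libraries of treatments that entered no segment. MINO-P and MINO-VR separate in segments 1, 3 and 5, which were drawn from the difference between them. JEKO-1 and Z138 lie above MINO-P in segments 2 and 3.

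Against the other lines, MINO-P was the lower one on most of the chromosome. Scores of JEKO-1 and Z138 in segment 1 had medians of 0.22 and 0.22, near the MINO-VR median of 0.27, and MINO-P was at -0.18. In segment 2 they were at 0.43 and 0.49 while both MINO cultures lay near 0. In segment 3 they were at 0.84 and 0.86, above MINO-P at 0.33 and MINO-VR at -0.35, and no JEKO-1 or Z138 library, from 0.62 upward, overlapped a MINO library. In segment 5 they were at 0.28 and 0.34, overlapping MINO-P at 0.18 but not MINO-VR at -0.19. The third JEKO-1 BTZ library was the highest of all in segments 3 and 5, at 1.59 and 1.09, and the lowest of all in segment 4, at -0.34.

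JEKO-1 and Z138 were each fitted against MINO-P over 8 shared treatments. These comparisons share the MINO-P libraries with the one that drew the segments, so the values are only set side by side. All JEKO-1 and Z138 libraries carry the MCL name, whereas the MINO-P libraries under CON, CLF, BTZ and BTZ_CLF carry HK, so series and line cannot be told apart in those treatments. Relative to genes of other chromosomes, JEKO-1 minus MINO-P was 0.46, 0.40, 0.63, 0.34 and 0.14 over segments 1 to 5. Z138 minus MINO-P was 0.44, 0.54, 0.55, 0.54 and 0.14. Their own segments had borders elsewhere. JEKO-1 was higher from CNTN4 to HLTF at 0.46, lower over the 28 genes from HPS3 to NMD3 (chr3:149129638-161253533) at -0.40, and level from PDCD10 to the end at 0.14. Z138 was higher from TRNT1 to U2SURP at 0.55 and level from CHST2 (chr3:143119771) to the end at 0.04.

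In counts, 75 of 675 genes were called higher in JEKO-1 than in MINO-P (limma, against 10.5% of all genes) and 123 lower (against 34.5%). The median of the other chromosomes was itself at -0.53 in this comparison, beside the high mitochondrial shares of JEKO-1. Size factors gave 240 higher and 71 lower, where 3303 and 3346 of all 15524 genes were called. Leaving mitochondrial genes out of the scaling gave 250 and 66, where 3492 and 3083 of all genes were called. Without the 6 libraries above 50% mitochondrial there were 206 and 68, against 2781 and 3318 of all 15265 genes. For Z138 against MINO-P, 312 of 670 genes were called higher (against 25.4% of all genes) and 97 lower (against 21.9%). In the MCL libraries alone the counts were 68 higher and 49 lower for JEKO-1, against 1408 and 2631 of all 15364 genes. For Z138 they were 313 higher and 74 lower, against 3897 and 2572 of all 15131 genes. Without overlap between libraries, 7 genes were higher in JEKO-1 than in MINO-P (against 1.2% of all genes) and 6 lower (against 2.66%), and 24 were higher in Z138 (against 2.79%) and 12 lower (against 3.3%).

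**Figure D5:**
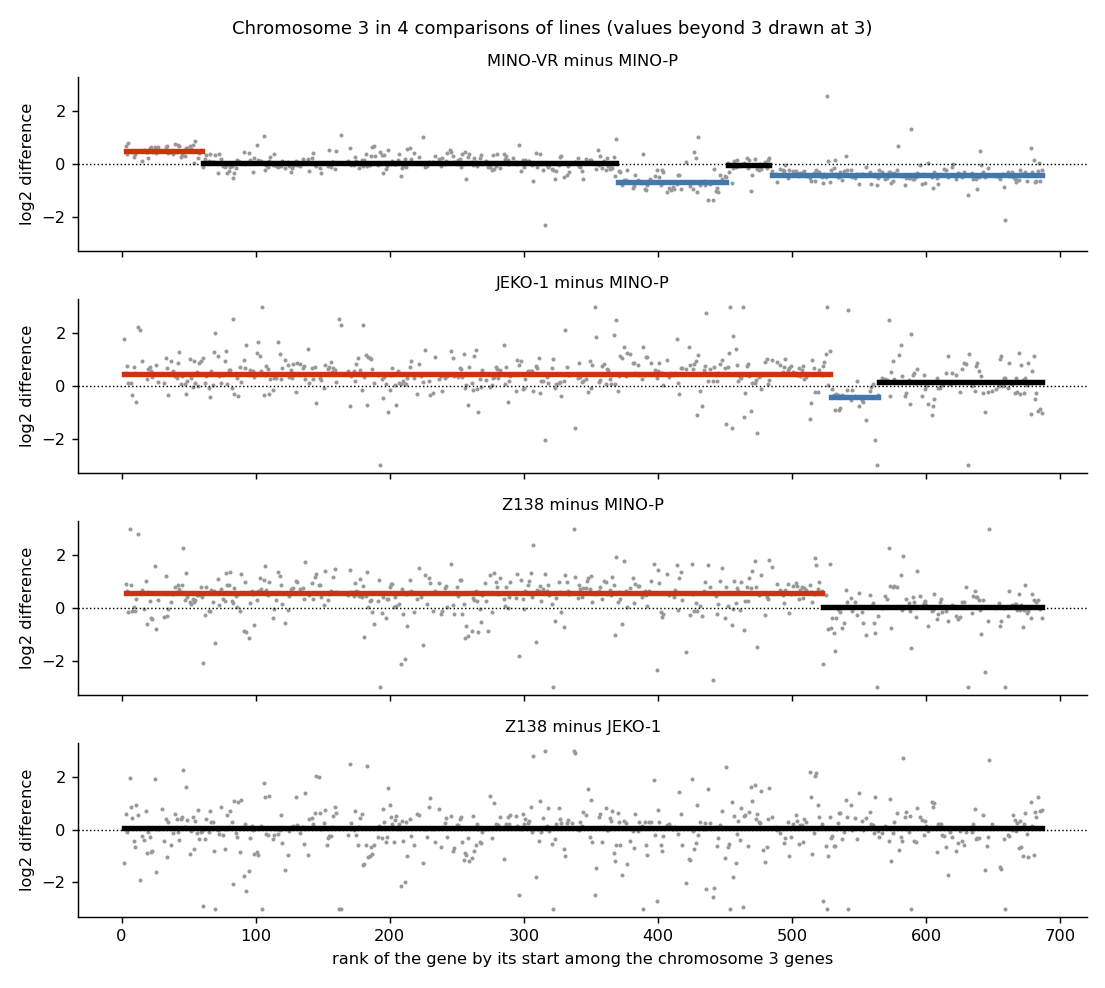
Difference of log2(CPM + 1), less the median of other chromosomes, for chromosome 3 genes by rank of their start in 4 comparisons of lines, with bars at the medians of the segments fitted to each (red higher, blue lower, black level). Z138 minus JEKO-1 has 1 level segment, and the comparisons with MINO-P have steps at different places.

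Z138 against JEKO-1 shares no library with the MINO comparison and can be tested. Over 7 shared treatments (12 Z138 and 13 JEKO-1 libraries), the fit gave 1 segment for the whole chromosome, level at 0.05. On the borders drawn in MINO the medians were -0.05, 0.07, 0.03, 0.32 and 0.03, and the 30 genes of segment 4 had quartiles of -0.63 and 0.65.

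Gene by gene, 214 of 673 genes were higher in Z138 (31.8%, against 33.5% of all 15641 genes, limma adjusted p under 0.05) and 98 lower (14.6%, against 16% of all genes), shares near the background. Libraries of the lines did not overlap for 14 genes higher in Z138 (against 3.85% of all genes) and 13 lower (against 1.97%). The split followed the scaling: 154 higher and 162 lower with size factors, against 3955 and 3855 of all 15641 genes. Once mitochondrial genes were left out it was 145 and 170, against 3757 and 3992 of all genes. Without the JEKO-1 libraries above 50% mitochondrial, 21 of the 25 libraries of this comparison were left. That gave 132 higher and 152 lower, against 3688 and 3468 of all 15407 genes. Leaving out the third JEKO-1 BTZ library gave 288 higher, against 6182 of all 15553 genes. The median of other chromosomes moved from 0.39 to 0.01 with mitochondrial genes left out and to 0.04 under size factors.

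The genes that differed most between Z138 and JEKO-1 kept their direction and their call under all 3 of those scalings and selections. Differences of single genes between Z138 and JEKO-1 are given without subtracting the median of other chromosomes, which was 0.39. ROBO1, the receptor of SLIT guidance cues, was at 37.7 CPM in the lowest Z138 library, 76.8 at the median and 132 in the highest, and at most 0.139 CPM in JEKO-1, a difference of 6.25 ± 0.22 (SE) on the log2(CPM + 1) scale, limma adjusted p = 9.65e-18. In the MINO libraries of shared treatments it was at most 0.0624 CPM. PTPRG was at 12.9 to 78.8 CPM in Z138 and 0 to 10.9 CPM in JEKO-1, higher by 3.85 ± 0.37 (SE), limma adjusted p = 3.40e-09. Its medians therefore ran from 40.7 CPM in Z138 over 15.5 in MINO-P and 2.03 in MINO-VR to 0.705 CPM in JEKO-1, where the MINO-VR and JEKO-1 libraries overlap.

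GBE1, the glycogen branching enzyme, was higher in Z138 by 3.31. On the lower side, CCRL2 was at 0 to 0.453 CPM in Z138 and 2.56 to 64.4 CPM in JEKO-1, a difference of -4.37 ± 0.29 (SE), limma adjusted p = 2.12e-12. PODXL2, a sialomucin, differed by -3.78, PLSCR1 by -3.76 and LRIG1, which restrains growth factor receptors, by -3.41. PLSCR1 was at a median of 0.0651 CPM in Z138 and 18.8 CPM in JEKO-1.

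Border genes of the MINO segments also differed between Z138 and JEKO-1 one by one. SH3BP5 had medians of 5.88 CPM in Z138 and 50.3 CPM in JEKO-1, a difference of -2.51 ± 0.31 (SE), limma adjusted p = 2.50e-07, whereas CAPN7 next to it, at 44.4 and 34.7 CPM, did not pass (adjusted p = 0.202). PLXNA1, a semaphorin receptor, was higher in Z138 by 2.78, ACAD11, a fatty acid oxidation enzyme, by 1.98 and CBLB by 1.01. ALCAM and TPRA1 did not pass, at -0.18 and -0.25.

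Of the listed genes, 7 of 12 of 3q22 to 3q25 were higher in Z138 than in JEKO-1 and 0 lower. In the fit of all shared libraries as deposited, 33.5% of all genes were called higher and 16% lower. These shares also stand behind the lists that follow, except where another setting is named. With mitochondrial genes left out 3757 and 3992 of all 15641 genes were called, and with size factors 3955 and 3855. Without the JEKO-1 libraries above 50% mitochondrial 3688 and 3468 of all 15407 genes were. Of the 7 genes of 3q22 to 3q25, 4 genes, TFDP2, RASA2, XRN1 and CCNL1, kept the call under these 3 other scalings and selections. TFDP2, the partner of E2F factors, had medians of 177 and 23.1 CPM, a difference of 2.41 ± 0.36 (SE), limma adjusted p = 4.43e-06. Of the 14 genes of 3q26, 4 were higher and 0 lower, with PIK3CA higher by 1.06 ± 0.26 (SE), limma adjusted p = 0.00129, and of the 20 of 3q27 to 3q29, 4 were higher and 1, HES1, a Notch target, lower. These splits followed the scaling too, with 3 higher and 2 lower in 3q26 and 3 higher and 3 lower in 3q27 to 3q29 with mitochondrial genes left out. Without the third JEKO-1 BTZ library, 7 genes of 3q26, 9 of 3q27 to 3q29, 7 of the short arm suppressor and repair list and 4 of the signalling list were higher. That fit called 6182 of all 15553 genes higher. Of the 12 short arm suppressor and repair genes, 3 were higher, namely FHIT by 2.16, PBRM1, of the PBAF remodelling complex, by 1.41, and XPC by 0.89, the last without a call under the 3 other settings. Of the 9 short arm signalling genes, 2 were higher, among them PRKCD by 0.87, and 1, TGFBR2, the receptor of TGF-beta, was lower, at -1.38. PRKCD lost its call under both other scalings, and 1 gene was higher and 2 lower under each of them.

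Of the 14 genes of 3q13 to 3q21, CBLB and RPN1 were higher, RPN1 without a call with mitochondrial genes left out or with size factors, and 1 was lower, against 4 with mitochondrial genes left out, 3 with size factors and 5 without the JEKO-1 libraries above 50% mitochondrial. That 1 was CD86, at a median of 14.4 CPM in Z138 against 32.4 CPM in JEKO-1, a difference of -1.65 ± 0.36 (SE), limma adjusted p = 0.000483. Of the 12 chemokine receptor genes on the list, 4 reached the minimum and 3 of these, CCR1, CCR2 and CCRL2, were lower in Z138 under every one of these settings. CCR2 was at a median of 0 CPM in Z138 and 6.15 CPM in JEKO-1. PARP14, PARP9 and DTX3L, which ran against segment 3 in MINO-VR, did not pass between Z138 and JEKO-1. They were at 0.18, -0.32 and -0.11, where the median of other chromosomes, not subtracted here, was 0.39. PARP14 was below 0 under both other scalings, and DTX3L was called lower at -0.95 (limma adjusted p = 0.0209) without the JEKO-1 libraries above 50% mitochondrial. SIDT1 and GNB4 were lower in Z138, at -3.02 and -2.86.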

How the data were processed

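The data are 56 poly-A RNA-seq libraries. The authors deposited 1 table of log2(CPM + 1) per gene, a unit read from the values, since library sums after undoing the log came to 999984 to 1000009 CPM; Partek and hg38 are named per the submitters' processing notes, and the aligner and strand setting are not given in the sources used here. Relative depth was recovered from the steps of low values, of which 65.3% to 87.6% came out whole within 0.05 of a read, too few for a count test.

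Lines were compared with limma 3.58.1 (R 4.3.3) on log2(CPM + 1), pseudocount 1, with treatment as a term, over genes with at least 1 CPM in 2 libraries of the fit, and Benjamini-Hochberg adjustment over all genes tested. Segments were fitted to the coefficients with a piecewise constant absolute-deviation fit (penalty factor 2, at least 15 genes, mean of at least 5 CPM), in Python 3.11.15. Both were run on simulated data with planted changes, limma on independent noise and the segment fit on shuffled residuals. The planted steps stood at the borders found here and shuffling unlinks neighbouring genes, so these runs do not test the borders. Differences called relative to other chromosomes subtract the median of the genes off chromosome 3.

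The genes, lists and comparisons were chosen with earlier results of these data known. Named genes were the 4 largest each way in the MINO and the Z138 against JEKO-1 comparisons with a constant direction over treatments, the genes at segment borders and 7 gene lists; some genes under this rule are not reported here. The genes furthest from their segment and those without overlap were chosen after their values were seen. Alternatives covered scaling, filters, pseudocount, library series, averaged libraries, segment settings, a replicate block and leaving out each library. Fits without the JEKO-1 libraries above 50% mitochondrial were added after seeing the data, as were the MCL-only fits of JEKO-1 and Z138 against MINO-P.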

Additional observations from a re-analysis of the deposited data

How the results depend on the processing

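For MINO-VR against MINO-P, the HK libraries alone called 48 chromosome 3 genes higher and 98 lower, against 1027 and 1020 of all 13397 genes. The MCL libraries alone called 55 higher and 51 lower, against 1351 and 553 of all 14340 genes. In the HK libraries GNB4 and CCRL2 did not pass, at 0.93 and 0.96. For Z138 against JEKO-1, genes called lower numbered 162 with size factors and 170 with mitochondrial genes left out. Of all 15641 genes, 3855 and 3992 were lower under these settings. With a mean of at least 5 CPM they numbered 50, against 1311 of all 10716 genes. Without the JEKO-1 libraries above 50% mitochondrial 132 were higher and 152 lower, against 3688 and 3468 of all 15407 genes. For JEKO-1 against MINO-P the counts were 240 higher and 71 lower with size factors, against 3303 and 3346 of all 15524 genes. They were 250 and 66 with mitochondrial genes left out, against 3492 and 3083 of all genes. Without those JEKO-1 libraries they were 206 and 68, against 2781 and 3318 of all 15265 genes. With a mean of at least 5 CPM 45 were higher, against 770 of all 10551 genes. In the MCL libraries 49 were lower, against 2631 of all 15364 genes. For Z138 against MINO-P, 50 were lower with a mean of at least 5 CPM, against 2318 of all 10804 genes. With averaged libraries 206 were higher, against 2561 of all 15262 genes. The segment fit gave 3 segments with a penalty factor of 4, a mean of at least 20 CPM or MCL borders, and segment 1 had a median of 0.61 with HK borders. With size factors or a minimum of 30 genes it gave 4 segments, and the level segment 4 was absorbed into a lower one. The cause was not tested.

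Leaving out 1 library also left out its treatment where the line had no other library of it. Counts ran from 84 to 111 higher and 96 to 147 lower for MINO-VR against MINO-P. The same fits called 1855 to 2550 and 1037 to 1438 of all genes. For Z138 against JEKO-1 they were 186 to 288 and 83 to 128, against 4710 to 6182 and 2121 to 3133 of all genes. For JEKO-1 against MINO-P they were 58 to 97 and 93 to 152, against 1407 to 1890 and 4317 to 6206. For Z138 against MINO-P they were 292 to 321 and 83 to 103, against 3506 to 4113 and 2961 to 3460. For the BTZ interaction such fits gave 0 higher and 0 to 1 lower. For MINO-VR against MINO-P they gave 4 to 5 segments, without a level segment 4 in 16 of 25 fits. Medians were 0.48 to 0.51 in segment 1, -0.70 to -0.62 in segment 3 and -0.41 to -0.38 in segment 5. Where each culture had 1 library of a treatment, removing either gave the same fit, and both are counted. With the library-name suffix as a replicate block, 95 were higher and 116 lower for MINO-VR against MINO-P, where 2152 and 1248 of all genes were. There were 224 and 90 for Z138 against JEKO-1, beside 5287 and 2314 of all genes. For JEKO-1 against MINO-P there were 77 and 118, beside 1611 and 5132. For Z138 against MINO-P there were 294 and 94, beside 3719 and 3296. The block moved no count of calls by more than 1.5 times.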

Other observations

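The noncoding genes of chromosome 3 with at least 1 CPM, which had no part in drawing the segments, were few. Their median difference between MINO-VR and MINO-P, relative to other chromosomes, was -0.10 over 6 genes in segment 1, -0.03 over 36 in segment 2, -0.37 over 11 in segment 3, -0.09 over 4 in segment 4 and -0.13 over 36 in segment 5. These medians were below 0 in all 5 segments, and segment 3 alone lay more than 0.2 from other chromosomes. The median subtracted was that of all genes off chromosome 3 with a mean of at least 5 CPM, coding ones included. None was taken over noncoding genes of other chromosomes, so a shift shared by noncoding genes in general cannot be told apart here.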
